A study of Jatropha curcas with 15 samples.

Results

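The change in gene expression between 24 h and 12 h after a cytokinin spray was measured in inflorescence buds of *Jatropha curcas*, a woody oil plant of the spurge family. The 3 arrays labelled 24 h were set against the 3 arrays labelled 12 h, so 6 of the 15 arrays of the time course were compared, and all probes other than the array's controls were considered. The plants were 1 year old and grown in a field, and the buds of both groups had received 1 mM 6-benzyladenine (BA, named 6-benzylaminopurine in the labels), a synthetic cytokinin. The 24-h group therefore held BA-treated buds collected 24 h after the spray (n = 3 biological replicates), and the 12-h group held BA-treated buds collected 12 h after it (n = 3). The remaining arrays were 3 each at 0, 3 and 48 h. No buds without BA at 24 h or 12 h were analysed here, and buds collected at these times were taken 12 h apart in the day, so time since BA and time of day cannot be told apart. An inflorescence bud holds many kinds of cells, and fewer cells of a type cannot be told apart from less RNA per cell.

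Cytokinins are adenine-derived hormones that promote cell division. They are perceived by histidine kinases, and the signal passes through phosphotransfer proteins to response regulators in the nucleus. In shoots they maintain the inflorescence meristem and raise the number of flowers. Many plant transcripts also rise and fall each day under a clock in which GIGANTEA (GI), an evening-phased protein in *Arabidopsis*, takes part, and among the genes known to follow the clock or light are those for chlorophyll synthesis, light-harvesting proteins and aquaporins.

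Each array carried Cy3-labelled RNA of 1 replicate. Levels are given as the log2 spot intensity minus the 75th percentile of the same array, so 0 is the 75th percentile itself, and levels of different probes are not set against each other. On the 6 arrays, the share of probes marked by the scanner software as well above background ran from 80.5% to 83.8%. Any 2 arrays of 1 time point correlated at 0.988 to 0.994, and a 24-h with a 12-h array at 0.968 to 0.979, across 34469 probes, which are not independent replicates. The median SD between replicates was 0.14 at 24 h and 0.16 at 12 h. The 24-h arrays and 12 h replicate 3 lay on 1 slide (slide 3), and 12 h replicates 1 and 2 on another (slide 2). On 12 h replicate 3, 466 probes lay at least 2-fold below both other 12-h arrays, against 105 and 236 on 12 h replicates 1 and 2. The counts for 24 h replicates 1, 2 and 3 were 102, 25 and 166.

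Of 34469 probes tested, 1401 (4.06%) were higher and 649 (1.88%) lower at 24 h than at 12 h, by 2-fold or more and with limma's Benjamini-Hochberg adjusted p not above 0.05. The adjusted p with no fold threshold was passed by 4269 probes (12.4%) on the higher side and 4457 (12.9%) on the lower side, so most changes past the test were less than 2-fold. A change of at least 8-fold was seen for 157 probes that rose and 48 that fell, and one of at least 32-fold for 20 and 7. The median log2 change over all tested probes was 0.01. The 24-h and 12-h arrays did not overlap at 1963 of the 2050 called probes, where 37.5% of all tested probes did not overlap. Within slide 3, the 24-h mean lay on the called side of 12 h replicate 3 for all 1401 probes that rose and all 649 that fell. Of all tested probes, 84.7% lay on the side of their fitted change. These 4 arrays are part of the contrast that gave the calls, so this is no separate check. The median difference within the slide was 1.85 for the probes that rose and -1.43 for those that fell, against 1.56 and -1.32 in the fit of all arrays. Without 12 h replicate 3, 1098 of the 1401 and 564 of the 649 calls remained.

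**Figure D1:**
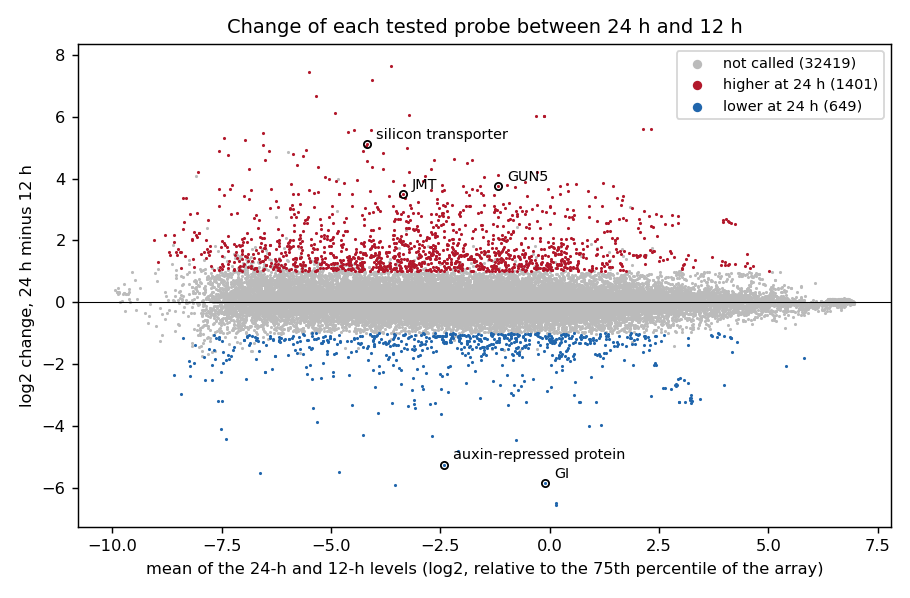
Each point is 1 of 34469 tested probes. The x axis is the mean of its 24-h and 12-h levels (log2, relative to the 75th percentile of the array), the y axis is the log2 change (24 h minus 12 h). The 1401 probes called higher at 24 h (red) and the 649 called lower (blue) lie beyond a change of 1 on the log2 scale at all levels, and 5 named probes are circled.

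Gene names were taken from the study's supplementary tables, because the array files hold probe numbers only. The probes' 60-base sequences come from the same tables, which here cover 2822 tested probes. They are shown because several probes of 1 name read the same stretch of RNA and are then not separate measurements. Probes without shared bases can still read different parts of 1 transcript, and no probe was placed on a gene here. The fall of auxin-repressed transcripts was read by 4 of the probes with a sequence. Capitals mark the 36 bases that CUST_22906, CUST_25239 and CUST_25344 share. CUST_25239 and CUST_25344 are the same 60 bases, and CUST_32452 shares no run of 20 bases with any of them.
CUST_32452 (auxin-repressed protein): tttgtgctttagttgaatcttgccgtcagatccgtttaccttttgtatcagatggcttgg
CUST_22906 (auxin-repressed protein, another entry): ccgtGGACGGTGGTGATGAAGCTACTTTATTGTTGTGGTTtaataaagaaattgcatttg
CUST_25239 (no name in the tables): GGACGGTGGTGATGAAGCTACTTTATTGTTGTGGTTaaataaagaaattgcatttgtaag
CUST_25344 (no name in the tables): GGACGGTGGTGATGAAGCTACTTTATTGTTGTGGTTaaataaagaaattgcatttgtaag
Those of 6 aquaporin probes that rose were all different, and the longest run that 2 of them share is the 14 bases in capitals.
CUST_10756 (silicon transporter): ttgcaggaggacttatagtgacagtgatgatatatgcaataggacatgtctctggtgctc
CUST_20176 (PIP2.2): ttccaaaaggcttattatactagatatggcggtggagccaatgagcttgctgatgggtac
CUST_20019 (PIP1.3): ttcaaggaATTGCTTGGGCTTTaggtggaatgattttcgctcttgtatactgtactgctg
CUST_40488 (PIP2.1): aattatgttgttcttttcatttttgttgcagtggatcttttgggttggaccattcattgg
CUST_11964 (PIP subfamily): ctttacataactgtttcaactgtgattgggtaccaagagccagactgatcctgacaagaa
CUST_10456 (PIP subfamily): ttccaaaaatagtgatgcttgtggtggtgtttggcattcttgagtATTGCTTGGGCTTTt
Of the chlorophyll A/B binding protein probes, the 3 called in this step are separate sequences. CUST_969 and CUST_8078 are the same 60 bases, and capitals mark the 28 bases that they share with CUST_9100.
CUST_10867: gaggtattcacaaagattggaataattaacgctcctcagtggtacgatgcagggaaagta
CUST_12680: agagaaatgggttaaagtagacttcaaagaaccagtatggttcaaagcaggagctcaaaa
CUST_7578: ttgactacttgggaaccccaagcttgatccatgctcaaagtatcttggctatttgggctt
CUST_969: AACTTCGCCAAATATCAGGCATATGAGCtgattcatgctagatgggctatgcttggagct
CUST_8078: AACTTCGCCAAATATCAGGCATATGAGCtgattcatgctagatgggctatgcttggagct
CUST_9100: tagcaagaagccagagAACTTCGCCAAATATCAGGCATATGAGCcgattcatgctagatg
Cinnamoyl-CoA reductase was measured by probes that moved in opposite directions, and these too are separate sequences.
CUST_8105 (fell): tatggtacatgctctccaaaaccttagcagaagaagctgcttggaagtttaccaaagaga
CUST_20091 (rose): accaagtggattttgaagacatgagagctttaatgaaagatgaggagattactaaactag
CUST_4941 (rose): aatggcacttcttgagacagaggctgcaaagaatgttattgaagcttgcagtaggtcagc
AP3 and SEP3, floral organ identity genes, and NCED3, an enzyme of abscisic acid synthesis, had a sequence in the tables as well.
CUST_10541 (AP3): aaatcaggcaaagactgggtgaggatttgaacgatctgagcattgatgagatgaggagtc
CUST_10402 (SEP3): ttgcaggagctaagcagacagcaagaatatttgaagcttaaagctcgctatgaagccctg
CUST_20053 (NCED3): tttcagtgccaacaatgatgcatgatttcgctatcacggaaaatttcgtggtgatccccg

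Probes with the same sequence gave nearly the same change. Of 23 pairs with identical 60 bases, the log2 changes differed by a median of 0.04 and by at most 0.13, and in the 8 pairs with both probes called the direction was the same. In the 123 pairs that share 20 to 59 bases on the same strand, the median difference was 0.05 and the largest 0.72. In the 1 pair on opposite strands, CUST_22396, named as a peripheral-type benzodiazepine receptor, rose by 1.71 on the log2 scale while CUST_23196, the reverse strand over 36 bases, changed by 0.43 and missed the 2-fold threshold.

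Among named probes, the deepest falls were in GI, an auxin-repressed protein and a hypothetical protein. The GI probe (CUST_31665) had levels of -3.22, -3.16 and -2.73 at 24 h, against 2.96, 2.58 and 2.92 at 12 h. All 24-h arrays lay far below all 12-h arrays, a change of -5.85 ± 0.13 (SE) on the log2 scale or 57.9-fold (adjusted p = 4.47e-11). The auxin-repressed protein (CUST_32452), of a family known in other plants from dormant buds and slow-growing tissue, had levels of -4.83, -5.14 and -5.19 at 24 h, against 0.98, -1.04 and 0.67 at 12 h. It was 38.3-fold lower at 24 h (log2 change -5.26 ± 0.47, adjusted p = 4.95e-06), although 12 h replicate 2 lay well below the other 12-h arrays. The second auxin-repressed probe, CUST_22906, had levels of 2.33, 1.81 and 1.45 at 24 h, against 5.50, 4.72 and 4.80 at 12 h, a fall of 3.14 ± 0.30. Its partners CUST_25239 and CUST_25344 fell by 3.11 and 3.24. The probe CUST_16360, named only as a conserved hypothetical protein, was at -4.41, -4.46 and -4.62 at 24 h, against 0.47, 0.13 and 0.35 at 12 h, a 28.2-fold fall with no overlap. Of the 10 probes with the deepest falls, 3 had a name, and the first 2 of the rest were CUST_25894 (log2 change -6.55) and CUST_23492 (-6.49).

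The steepest rises included an aquaporin-like transporter, a cation efflux protein and hypothetical proteins. The conserved hypothetical protein CUST_650 had levels of 2.93, 2.85 and 2.85 at 24 h, against -2.80, -3.14 and -3.47 at 12 h, a 64.7-fold rise (log2 change 6.01 ± 0.16, adjusted p = 1.9e-10). The silicon transporter (CUST_10756), a channel of the aquaporin family, was at -1.45, -1.79 and -1.63 at 24 h, against -6.94, -6.55 and -6.74 at 12 h, 34.8-fold higher (5.12 ± 0.25, adjusted p = 3e-08). In both, every 24-h array lay above every 12-h array by more than 4 log2 units. Of the 10 steepest rises among probes well above background on all 6 arrays, 2 had a name, and the first of the rest were CUST_18889 (log2 change 6.05) and CUST_1581 (6.02).

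Some probes stood well above background on every array of 1 time point and on no array of the other, 50 of them only at 24 h and 55 only at 12 h. For these a bound is given. A dim array counts in it with the lowest level of any probe marked well above background there, unless the probe itself read higher. That level is not a detection limit for the probe in question, so "at least" holds only under this rule. The conserved hypothetical protein CUST_10716 was at least 71.6-fold higher at 24 h (adjusted p = 1.4e-09), with a mean level of -1.78 at 24 h and -9.22 at 12 h. The cation efflux protein (CUST_11629), a family of metal ion transporters, was at least 13.3-fold higher, with levels of -3.82, -4.30 and -4.50 at 24 h, against -8.20, -9.05 and -9.17 at 12 h (adjusted p = 2.3e-07). A mitogen-activated protein kinase kinase kinase (CUST_4984) was at least 5.83-fold and the auxin-induced protein 5NG4 (CUST_6743) at least 2.68-fold higher. With normexp background correction neither passed (adjusted p = 0.0827 for CUST_4984 and 0.276 for CUST_6743). The named probes seen at 12 h only had small bounds. The X-box binding nuclear transcription factor (CUST_20078) was at least 1.77-fold lower at 24 h (adjusted p = 0.00023), but the difference missed the test in the authors' log2 table (adjusted p = 0.549) and turned to 0.40 with normexp background correction. Casein kinase alpha 1 (CUST_4131) was at least 1.42-fold lower (adjusted p = 0.076), a difference that did not pass the test and turned to 0.69 with normexp.

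**Figure D2:**
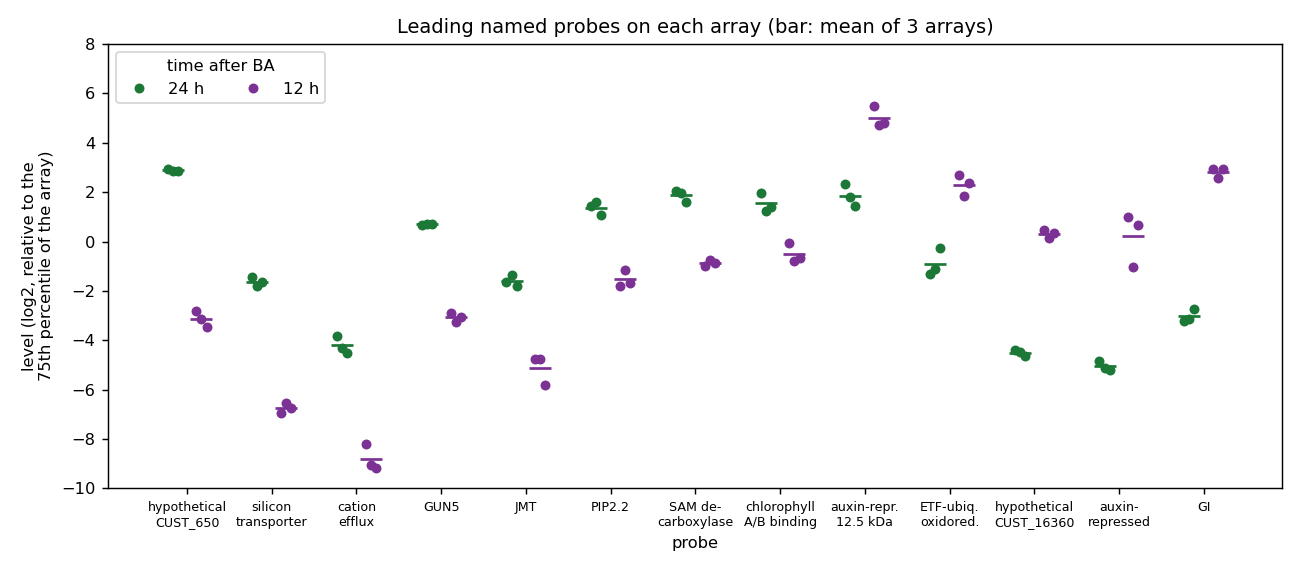
Levels of 13 leading named probes on each of the 3 arrays at 24 h (green, left) and at 12 h (purple, right). The y axis is the log2 level relative to the 75th percentile of the array, and bars are means. The first 8 probes lie higher on every 24-h array and the last 5 lower, from 2.93 against -2.80 in replicate 1 of CUST_650 to -3.22 against 2.96 in replicate 1 of GI.

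The study's list of flowering genes held 32 probes, of which 29 were tested, 4 rose and 1 fell, where 4.06% of all tested probes rose and 1.88% fell. The 4 that rose were floral organ identity genes, which specify sepals, petals, stamens, carpels and ovules, and the 1 that fell was GI. Of the 10 organ identity probes 8 were tested, 6 of them passed the adjusted p, all upwards (12.4% of all tested probes did so upwards and 12.9% downwards), and the median log2 change of the 8 was 1.09 against 0.01 for all tested probes. Without 12 h replicate 3 that median was 0.75. PI, a partner of AP3 in petals and stamens, and a tomato MADS-box probe did not clear the background filter at any time point. The other 8 cleared that filter.

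AP3, required for petals and stamens, had levels of -1.77, -0.74 and -0.66 at 24 h, against -2.11, -2.57 and -4.61 at 12 h. It was 4.12-fold higher at 24 h (2.04 ± 0.55, adjusted p = 0.016), and 12 h replicate 3 lay more than 2 units below its fellow replicates. STK, an ovule identity gene, was at -3.56, -2.52 and -2.71 at 24 h, against -4.09, -4.05 and -6.06 at 12 h (1.80 ± 0.47, adjusted p = 0.014). SEP3, a cofactor of the other organ identity proteins, was at -1.0, -0.45 and -0.61 at 24 h, against -1.63, -1.46 and -3.45 at 12 h (1.5 ± 0.40, adjusted p = 0.017). SEP1, of the same subfamily, was at -1.37, -0.66 and -1.14 at 24 h, against -1.94, -1.86 and -3.0 at 12 h (1.21 ± 0.27, adjusted p = 0.0059). In all 4 genes the groups did not overlap, and the same array, 12 h replicate 3, was the lowest. SEP2 and AG, the carpel and stamen gene, passed the adjusted p with changes of 0.96 and 0.76 and were under 2-fold. AP1, a sepal and floral meristem gene, changed by 0.60 (adjusted p = 0.081), and AP2 by -0.02 (adjusted p = 0.93).

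Without 12 h replicate 3, AP3 changed by 1.29 (adjusted p = 0.038), STK by 1.14 (0.029), SEP3 by 0.86 (0.014) and SEP1 by 0.85 (0.011), so SEP3 and SEP1 were then under 2-fold. In a fit of the 6 arrays alone none of the 4 passed, with adjusted p of 0.0924, 0.0899, 0.109 and 0.0631 for AP3, STK, SEP3 and SEP1. Without 24 h replicate 2, STK and SEP3 missed the threshold (adjusted p = 0.0564 and 0.0592), and AP3 missed it when either 24 h replicate 2 or 24 h replicate 3 was left out (smaller adjusted p of the pair, 0.0567). Within slide 3, where 12 h replicate 3 is the only 12-h array, the differences were 3.55, 3.13, 2.77 and 1.95.

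**Figure D3:**
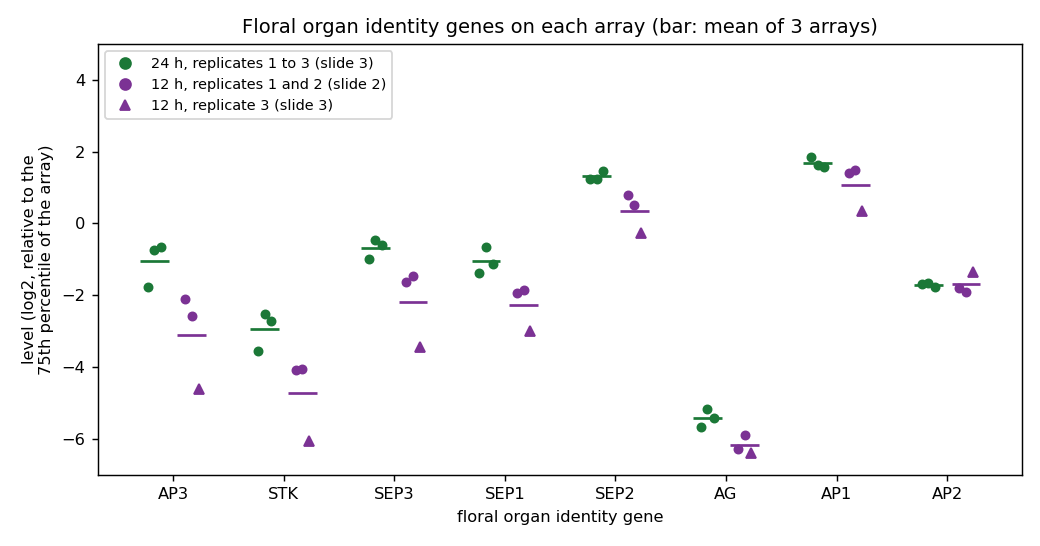
Levels of the 8 tested floral organ identity genes on each array at 24 h (green, left) and 12 h (purple, right), as log2 relative to the 75th percentile of the array, with bars at the means. Triangles mark 12 h replicate 3, the 12-h array on slide 3, which is the lowest of all arrays in AP3, STK, SEP3, SEP1, SEP2, AG and AP1.

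Apart from GI, none of the other flowering genes was called. Of the light and clock genes besides GI, COP1, a ubiquitin ligase that represses light responses, was at 0.09, -0.01 and 0.16 at 24 h, against -0.93, -1.08 and -0.52 at 12 h (0.93 ± 0.12, adjusted p = 0.000139). The photoreceptor genes CRY1 and PHYA passed the adjusted p with 0.65 and 0.25. None of these 3 reached 2-fold, although the groups did not overlap in any of them. Among flowering time genes, SOC1 (AGL20) changed by 0.43 ± 0.55 (adjusted p = 0.60), SVP by -0.28 (0.17) and ELF8 by -0.10 (0.60). In none of the 5 tested meristem and boundary probes (STM, AS1, CUC1, CUC3, ULT1), the 4 gynoecium probes (ETT, NGA2, SEU, SPT) and the auxin response factor probes ARF and ARF6 did the change pass the test, with values between -0.40 in ARF and 0.56 in NGA2. SERK1, a receptor kinase, fell by 0.42 on the log2 scale, under 2-fold (adjusted p = 0.0400). TS2, a sex-determination gene in maize, was at -0.95, -0.70 and -0.90 at 24 h and 0.30, -0.02 and -1.09 at 12 h, so the groups overlapped (adjusted p = 0.19).

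Of 113 tested probes on the study's list of hormone genes, 7 rose, none fell by 2-fold, and 81 did not pass the adjusted p. Over all tested probes 4.06% rose and 1.88% fell by 2-fold, so the list's share of rises was near the background. The list's median log2 change was -0.02. No cytokinin receptor, synthesis, transport or signalling probe was among the 7. Of 27 cytokinin probes 1 was called, QUA2 (CUST_36735), a pectin methyltransferase that the list places under responses to cytokinin, at 0.24, 0.74 and 0.37 at 24 h, against -0.41, -0.27 and -1.08 at 12 h (1.03 ± 0.24, adjusted p = 0.0084). ARR1, a response regulator that activates cytokinin targets, changed by -0.37 (adjusted p = 0.03).

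The largest rises of the hormone list lay in abscisic acid and jasmonate genes. GUN5 (CUST_15540), which the list carries as an abscisic acid receptor and which encodes the H subunit of magnesium chelatase in chlorophyll synthesis, was at 0.66, 0.70 and 0.73 at 24 h, against -2.89, -3.27 and -3.05 at 12 h. It was 13.6-fold higher at 24 h (3.76 ± 0.18, adjusted p = 2.9e-08), with all 24-h arrays above all 12-h arrays. NCED3 (CUST_20053), which cleaves carotenoids in the first committed step of abscisic acid synthesis, was at -4.19, -4.27 and -4.39 at 24 h, against -7.29, -6.09 and -7.42 at 12 h, where 1 of the 3 arrays was well above background (2.65 ± 0.31, adjusted p = 6e-05). DXS (CUST_4773), the entry enzyme of plastid isoprenoid synthesis, rose by 1.12 ± 0.18 (adjusted p = 0.0006). ABA1, zeaxanthin epoxidase, passed the adjusted p with 0.88. In the same list HAB1, a phosphatase that represses abscisic acid signalling, fell by 0.54, under 2-fold (adjusted p = 0.00165).

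JMT (CUST_14900), which makes methyl jasmonate, was at -1.65, -1.37 and -1.81 at 24 h, against -4.75, -4.76 and -5.82 at 12 h, 11.3-fold higher (3.5 ± 0.29, adjusted p = 3e-06). SUR1 (CUST_16559), listed under auxin synthesis and described as a tyrosine aminotransferase, was at -2.96, -2.62 and -3.08 at 24 h, against -5.77, -5.31 and -4.59 at 12 h (2.33 ± 0.27). DOGT1 (CUST_14505), which attaches glucose to brassinosteroids in *Arabidopsis*, was at -5.28, -4.88 and -4.92 at 24 h, against -5.42, -7.92 and -7.10 at 12 h (1.78 ± 0.44, adjusted p = 0.011). In DOGT1 the 12-h arrays spread over more than 2 units, and 12 h replicate 1 lay close to the 24-h arrays. At 12 h, 2 of the 3 arrays read DOGT1 well above background. In a fit of the 6 arrays its adjusted p was 0.0959, and with normexp background correction it did not pass either. Within slide 3, where 12 h replicate 3 is the only 12-h array, the difference was 2.07. IAA19, an early auxin-response repressor, fell by 0.91 (adjusted p = 0.00305) and RGA1, a DELLA repressor of gibberellin responses, by 0.69 (adjusted p = 0.000199). Both were under 2-fold with no overlap.

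Among the 12 transcripts also followed by qRT-PCR, 11 were tested on the arrays, 3 rose and 1 fell. Over all tested probes 4.06% rose and 1.88% fell. The study had picked these 12 to represent the clusters of its differential transcripts on these arrays, so they are not an independent set. Besides the auxin-repressed protein, CUST_650 and the cation efflux protein given above, Myb domain protein 12 (CUST_13129), a regulator of flavonol synthesis in *Arabidopsis*, was at -4.03, -3.64 and -3.52 at 24 h, against -4.77, -4.58 and -5.21 at 12 h (1.13 ± 0.21, adjusted p = 0.0019). The histidine kinase probe CUST_36745 changed by -0.11 (adjusted p = 0.47) and the histidine kinase and response regulator probe CUST_36758 by 0.49 (adjusted p = 0.20).

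The groups that follow were made by keyword from the descriptions of 854 probes in the first part of the study's list of differential probes. Of these, 82 rose and 35 fell in the step. The study had chosen that list on these arrays, and it is held here only in part, so no list below is independent evidence of a direction. The background for each list is that pool of 854, whose shares both lay above the 4.06% higher and 1.88% lower of all tested probes. No list was tested against the pool. Past the adjusted p alone, 202 probes of the pool rose and 222 fell.

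Aquaporins, channels for water and small solutes in the plasma membrane and the vacuole membrane, had 6 of 16 probes higher by 2-fold and 1 lower. In the pool of 854 probes, 82 were higher and 35 lower. All 16 passed the adjusted p, 15 of them upwards, and by sequence they form 14 groups. The median log2 change was 0.98, and it lay between 0.92 and 0.98 under the scaling and background alternatives. With the slide as a fixed block, which sets the 24-h arrays against 12 h replicate 3 alone, the median was 1.12. Without 24 h replicate 2, 10 of the 16 rose by 2-fold. Besides the silicon transporter, PIP2.2 (CUST_20176) was at 1.44, 1.58 and 1.09 at 24 h, against -1.78, -1.14 and -1.68 at 12 h, 7.50-fold higher (2.91 ± 0.24, adjusted p = 3e-06). PIP1.3 (CUST_20019) was at 2.26, 2.03 and 1.61 at 24 h, against -0.61, -1.10 and -0.83 at 12 h (2.81 ± 0.19). PIP2.1 (CUST_40488) was at -0.63, -0.61 and -0.77 at 24 h, against -3.73, -3.41 and -3.23 at 12 h (2.79 ± 0.16). The 24-h arrays were above all 12-h arrays in each. The other 6 tonoplast intrinsic protein probes passed the adjusted p with changes of 0.91 to 1.0, all just under 2-fold, and 2 of these, CUST_203 and CUST_9745, are the same 60 bases, while CUST_28891 and CUST_5980 share 35. The fall was in another tonoplast intrinsic protein probe, CUST_7640, at 0.97, 0.75 and 0.56 at 24 h, against 2.33, 1.54 and 1.43 at 12 h (-1.01 ± 0.24).

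In photosynthesis, 4 of 28 probes rose by 2-fold and none fell by as much, where 82 and 35 of the pool's 854 did. Past the adjusted p, 14 went upwards and 3 downwards, and the median change was 0.43. NADP-dependent glyceraldehyde-3-phosphate dehydrogenase (CUST_11299) was at -0.98, -1.39 and -1.43 at 24 h, against -3.58, -3.70 and -3.45 at 12 h (2.31 ± 0.19). It is in the list by keyword only, and its description does not name a chloroplast form. The chlorophyll A/B binding protein probe CUST_10867, of the antenna that feeds the photosystems, was at 1.98, 1.25 and 1.41 at 24 h, against -0.06, -0.77 and -0.66 at 12 h (2.04 ± 0.27, adjusted p = 0.00014). CUST_12680 rose by 1.73 ± 0.22 and CUST_7578 by 1.21 ± 0.21. The identical probes CUST_969 and CUST_8078 changed by 0.82 and 0.87, and CUST_9100 by 0.91, all under 2-fold. Other antenna probes did not pass the test, among them CUST_5497 (0.04, adjusted p = 0.93), CUST_17153 (0.38, adjusted p = 0.39) and the Lhca3 probe CUST_3456 (0.39, adjusted p = 0.39), all with overlapping arrays. Of the core subunits, the photosystem I reaction center subunit XI probe (CUST_31967) changed by 0.09 (adjusted p = 0.80) and the photosystem II W protein probe (CUST_32285) by 0.18 (adjusted p = 0.54), again with overlap. Triose phosphate translocator probes moved both ways, all under 2-fold. CUST_6351 fell by 0.90, while CUST_8469 rose by 0.65 (adjusted p = 0.0043) and CUST_23246 by 0.47 (adjusted p = 0.0031).

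Plastid isoprenoid genes had 3 of 9 probes higher and none lower by 2-fold, with a median of 0.61 (pool of 854: 82 higher, 35 lower). NCED3 is one of them, and the DXS probes CUST_8307 and CUST_15654 rose by 1.13 ± 0.17 and 1.07 ± 0.18. A further DXS probe, CUST_20165, changed by -0.85 (adjusted p = 0.00286), so probes of this name moved both ways.

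Phenylpropanoid genes, which lead to lignin and flavonoids, had 6 of 14 probes higher and 1 lower (pool of 854: 82 and 35). Their median was 0.53. Phenylalanine ammonia-lyase (CUST_17518), the entry enzyme, was at 0.76, 1.00 and 0.94 at 24 h, against -0.10, -0.38 and -0.27 at 12 h (1.15 ± 0.11, adjusted p = 6.9e-06). Cinnamoyl-CoA reductase, which directs the pathway to lignin, rose at CUST_20091 (1.23 ± 0.14) and CUST_4941 (1.17 ± 0.17), and by 2-fold at CUST_20100 and CUST_3004 too. Other probes of this name went down. CUST_781 fell by 0.84, under 2-fold and without overlap (adjusted p = 0.0014). CUST_16830 (-0.30, adjusted p = 0.28) and CUST_4259 (-0.16, adjusted p = 0.21) did not pass. The cinnamoyl-CoA reductase-like probe CUST_8105 was at 0.84, 0.67 and 1.15 at 24 h, against 2.29, 2.22 and 2.17 at 12 h, a fall of 1.34 ± 0.10 (adjusted p = 1.55e-06).

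Cell wall genes had 3 of 12 probes higher and 1 lower (pool of 854: 82 and 35), with a median of -0.19. Polygalacturonase (CUST_17868), which cuts pectin, was at -1.42, -1.08 and -0.58 at 24 h, against -3.05, -3.38 and -2.20 at 12 h (1.85 ± 0.30). The major pollen allergen Ory s 1 probe (CUST_37684), an expansin relative, was at -5.03, -3.18 and -5.40 at 24 h, against -7.86, -8.30 and -5.68 at 12 h, where 1 of 3 arrays was well above background (2.75 ± 0.80, adjusted p = 0.025). Its arrays spread widely in both groups, and leaving out 12 h replicate 1 (adjusted p = 0.0810), 12 h replicate 2 (0.0831) or 24 h replicate 2 (0.102) ended the call. Callose synthase 1 (CUST_21661), which 2 of 3 arrays at 24 h and 1 of 3 at 12 h read above background, rose by 1.14, and Exostosin-2 (CUST_29096) fell by 1.14. Both calls ended with normexp background correction (adjusted p = 0.352 for CUST_21661 and 0.854 for CUST_29096). None of the 3 expansin probes passed, with changes of -0.20 to -0.18.

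In starch and sugar metabolism 1 of 15 probes rose and 1 fell (pool of 854: 82 and 35), with a median of -0.32. Beta-amylase (CUST_18261), which breaks down starch, was at 0.65, 0.36 and -0.08 at 24 h, against -0.92, -1.07 and -0.89 at 12 h (1.27 ± 0.23, adjusted p = 0.0015). Sucrose phosphate phosphatase (CUST_9775), the last enzyme of sucrose synthesis, was at -4.10, -3.83 and -3.70 at 24 h, against -2.08, -2.38 and -1.98 at 12 h (-1.73 ± 0.12, adjusted p = 8e-07). With normexp background correction its adjusted p was 0.0638, and the list's median turned to 0.27. Both starch synthase probes passed the adjusted p downwards, at -0.39 and -0.32.

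Heat shock proteins and chaperones moved both ways, with 3 of 22 probes higher and none lower by 2-fold (pool of 854: 82 and 35). Past the adjusted p, 5 went upwards and 8 downwards. HSC70-1 (CUST_20024), a constitutive chaperone, was at 2.42, 2.74 and 2.87 at 24 h, against 1.19, 1.47 and 0.79 at 12 h (1.53 ± 0.19). A DnaJ co-chaperone (CUST_38293) rose by 1.02 ± 0.20, but by 0.55 within slide 3, which missed the threshold with the slide as a block (adjusted p = 0.0643). Protein disulfide isomerase (CUST_29073) fell by 0.85, under 2-fold.

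Among 19 transcription factor probes 3 rose and none fell by 2-fold, where 82 and 35 of the pool's 854 did. CUST_449, described only as a transcription factor, was at -0.20, -0.49 and -0.76 at 24 h, against -1.93, -2.06 and -2.07 at 12 h (1.54 ± 0.14), and CUST_13823, above background on 2 of 3 arrays at 24 h and on none at 12 h, was at least 1.83-fold higher by the bound used for dim probes (adjusted p = 0.256 with normexp background correction). In amino acid synthesis 1 of 13 probes rose, SUR1 given above, and 1 fell, the plastid 3-deoxyheptonate aldolase at the start of the shikimate pathway (CUST_14313, -1.03 ± 0.16). None was called among 19 ribosome and translation probes, 19 proteasome and ubiquitin probes, 15 chromatin and cell cycle probes, 12 photorespiration and one-carbon probes and 9 lipid synthesis probes. The medians of these lists lay between -0.15 and 0.07.

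No probe of the 14 on the seed oil body and storage list was called. Under 2-fold and without overlap, an AWPM-19-like probe (CUST_20562) fell by 0.85 (adjusted p = 0.015). The small rubber particle protein probe (CUST_2085) rose by 0.73 (adjusted p = 0.0036), also without overlap. The 8 oleosin 2 probes, markers of oil bodies in seeds, changed by 0.49 to 1.09 with adjusted p from 0.13 to 0.36. At CUST_20585 the 24-h arrays read -3.93, -3.59 and -3.14 and the 12-h arrays -3.18, -5.99 and -4.76, so the time points overlapped. The list's probes are not separate measurements, since its 14 probes fall into 9 groups without a shared run of 20 bases.

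**Figure D4:**
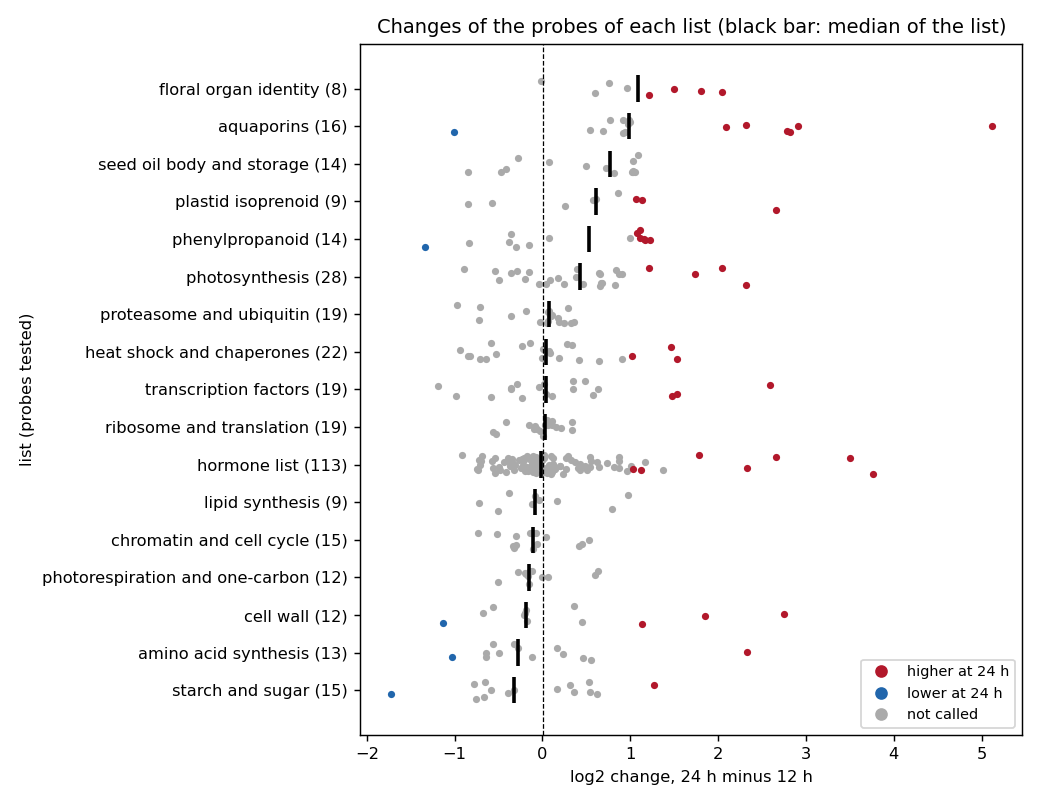
Each point is a tested probe of the list named on the y axis (number of probes in brackets), placed by its log2 change (24 h minus 12 h) on the x axis. Red and blue points were called higher and lower, black bars are list medians, and the dashed line is the median of all tested probes, 0.01. Floral organ identity (1.09) and aquaporins (0.98) have the highest medians and starch and sugar (-0.32) the lowest in this setting. Without 12 h replicate 3 floral organ identity is at 0.75, and with normexp starch and sugar is at 0.27.

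Some named probes outside these lists were chosen after their values were seen. S-adenosylmethionine decarboxylase (CUST_25486), an enzyme of polyamine synthesis, was at 2.04, 1.98 and 1.59 at 24 h, against -1.01, -0.77 and -0.85 at 12 h (2.75 ± 0.12, adjusted p = 2e-08). Myo-inositol-1 phosphate synthase (CUST_20088), the entry enzyme of inositol synthesis, was at 2.21, 2.53 and 1.35 at 24 h, against -1.39, -0.77 and -0.67 at 12 h (2.97 ± 0.25). An N-acetyltransferase (CUST_14937) rose by 4.65 ± 0.21. On the other side, electron transfer flavoprotein-ubiquinone oxidoreductase (CUST_24166), which in *Arabidopsis* serves amino acid breakdown in mitochondria under carbon shortage, was at -1.31, -1.12 and -0.28 at 24 h, against 2.71, 1.85 and 2.36 at 12 h (-3.21 ± 0.24, adjusted p = 1.3e-06). An alcohol dehydrogenase (CUST_3802) fell by 2.67 ± 0.21. All 5 had no overlap between the groups.

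The arrays of 0, 3 and 48 h are not in the difference of means, although they share in the filter and in the fit's estimate of spread, and they were read for the same probes. The 1401 probes that rose had median levels of -1.76, -1.54, -3.73, -1.81 and -1.79 in time order, from 0 h through 3, 12 and 24 h to 48 h. The 649 that fell had -2.52, -2.39, -0.93, -2.51 and -2.36. In both sets the 12-h level stood apart, and the 24-h level was within 0.1 of the 0-h level. In the comparison of 48 h with 0 h, which uses none of the 6 arrays, 94 of the 1401 probes that rose and 31 of the 649 that fell were called (6.71% and 4.78%), where 2.70% of all tested probes were. In the comparison of 3 h with 0 h, which shares the 0-h arrays with it, 171 (12.2%) and 91 (14.0%) were called, where 2.59% of all tested probes were. The median change from 0 h to 48 h was -0.08 and 0.07 in the 2 sets.

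Single genes did not all follow these medians. GI averaged -3.61, 0.14, 2.82, -3.03 and -2.34 over the same times, so its 3-h level lay between those of 0 and 12 h. The silicon transporter averaged -0.66, -0.94, -6.75, -1.62 and -1.74, and JMT -0.70, -2.16, -5.11, -1.61 and -2.16. The photosynthesis list had median levels of 1.67, 1.97, 0.14, 0.98 and 1.56 over the same times, so its 24-h level lay between its 12-h and 0-h levels. The oleosin-bearing seed list had median levels of -7.87, -8.22, -5.04, -4.43 and -5.34, with the 24-h and 12-h levels both above those of 0 h. That difference lay in the oleosin 2 probes, which changed by 2.46 to 5.7 from 0 h to 24 h. The list's other probes changed by -0.78 (late embryogenesis abundant, CUST_20906) to 0.10 (small rubber particle protein, CUST_2085), with oleosin1 (CUST_20598) at -0.68.

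**Figure D5:**
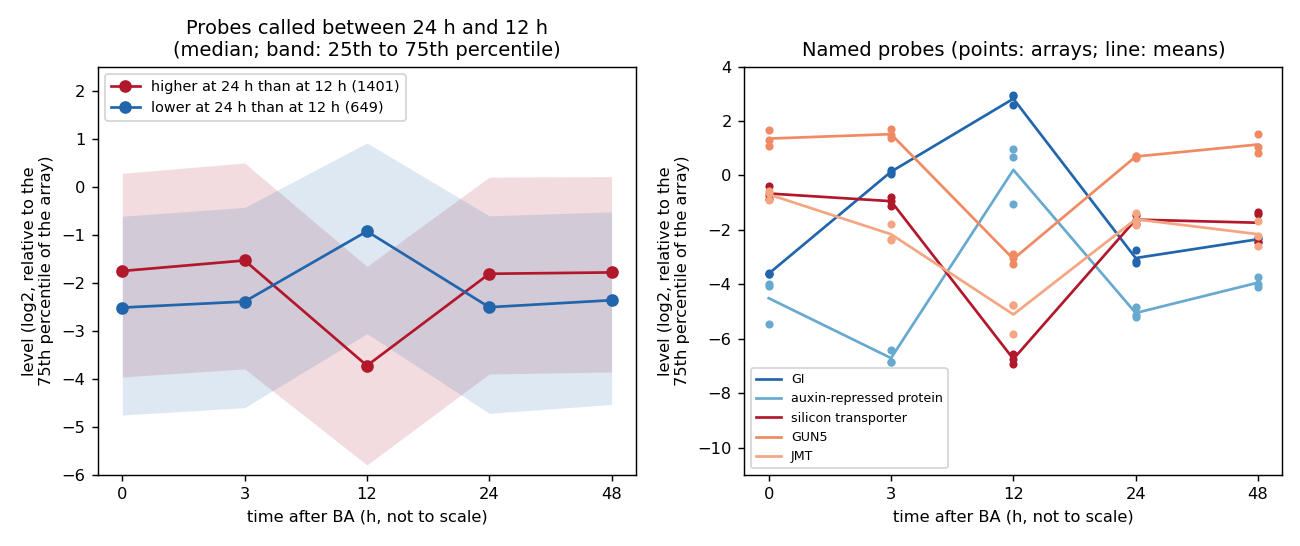
Levels over the 5 time points (x axis, hours after BA, not to scale), as log2 relative to the 75th percentile of the array. The left panel gives the median and the 25th to 75th percentile of the 1401 probes higher and the 649 lower at 24 h than at 12 h, and the right panel 5 named probes, with points for arrays and lines for means. The 12-h values stand apart, and GI (2.82 at 12 h) is at 0.14 at 3 h.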

How the data were processed

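RNA of inflorescence buds was hybridised to 1-colour (Cy3) Agilent arrays, 1 per replicate. The deposited scanner files give each spot's intensity after background subtraction and spatial detrending by the authors in Agilent Feature Extraction. The deposited table of log2 values, made by the authors in GeneSpring GX, matched quantile-normalized intensities within 0.1 for 99.988% of values and was used as an alternative. Spots marked as outliers were left out, repeated spots averaged, and each array's 75th percentile subtracted after log2. A probe was tested where every array of some time point read it well above background (34469 of 41651 probes). A model with the 5 time points as groups was fitted to all 15 arrays in limma 3.58.1 (R 4.3.3), with moderated tests and Benjamini-Hochberg adjustment over all tested probes. Calls needed a change of 2-fold or more and an adjusted p not above 0.05. In simulated data of 34304 probes, 200 were changed by 1.5 or 2 log2 units. The adjusted p was passed by 94% of these and by 7 unchanged probes. The 2-fold rule was not applied there. The simulated noise was independent, without a slide effect or an outlying array, so these values do not describe the calls above. The number of arrays limits the precision. An exact permutation test of 3 against 3 arrays cannot reach the threshold.

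Names and sequences came from the study's supplementary tables, and descriptions were used at an expectation of at most 1e-05. Named were called probes of the flowering, hormone and qRT-PCR lists, up to 4 called probes without overlap in each keyword list, the 10 largest rises and falls over all probes (by name, or at most 2 by number alone), and up to 5 named probes each way above background at 1 time point only. The members and lists were chosen with earlier results of these data known. Alternatives were other scalings, background correction with normexp (offset 50), other filters, slide and replicate blocks, a fit of the 6 arrays, no moderation, and leaving out each array. A probe of the flowering list is not reported here by name.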

Additional observations from a re-analysis of the deposited data

How the results depend on the processing

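Background correction with normexp gave 368 lower and 1362 changed probes in all, and moved the median of all probes to 0.12. The median of the starch and sugar list was then 0.27 and that of amino acid synthesis 0.22, both below 0 otherwise. Under it the X-box binding transcription factor (CUST_20078) turned to 0.40 and casein kinase alpha 1 (CUST_4131) to 0.69, neither past the threshold; the cause was not tested. Under quantile normalization 1262 probes were higher and 802 lower. With the slide as a fixed block, the contrast came down to the 24-h arrays against 12 h replicate 3 alone. That setting is therefore no check on this array. Leaving out 1 array gave 1881 to 2350 calls in all, 1210 to 1555 higher and 628 to 795 lower. Of 51 named probes, 15 changed their side of the threshold under at least 1 of 20 alternatives. Deviations of same-numbered arrays correlated at -0.14, 0.20 and 0.25, and those of the other pairs at -0.30 to 0.13. With 3 arrays per time point, this cannot decide whether replicate numbers pair the arrays. With the replicate block 1391 probes were higher and 647 lower, 2038 in all. A probe dim on every array of a time point has only a bound.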
